A study of Mus musculus with 28 samples.

Results

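The cells described here are mouse MOZ-TIF2 cells that had been in 5 µM benzarone for 3 days, set against cells of the same line after 1 day in the same compound. They were chosen by the condition written for each cell barcode in the deposited cell annotation, which gave 829 cells for day 3 and 826 cells for day 1, or 1655 of the 5696 single cells of the series. A further 883 cells kept in DMSO, the solvent, for 1 day came from the same table and are given as the background. The line started from C57Bl/6 bone marrow cells carrying the c-Kit receptor, into which a retrovirus brought a Ty1-tagged MOZ-TIF2. GFP-positive cells were sorted and passed serially through methylcellulose, so all 3 conditions share the fusion gene and the history of replating, and all come from 1 line. Each condition was 1 sample, so no test across samples was possible, and every interval below is a 95% interval for counting error alone. No day 3 DMSO sample was analysed here, so time in culture and time in benzarone cannot be told apart here.

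MOZ-TIF2 joins most of the MOZ histone acetyltransferase to the transcriptional coactivator TIF2 and is found in acute myeloid leukaemia. Cells transformed by it stay in a progenitor state, in which HOXA and MEIS factors, MYC and dense ribosome synthesis support growth, and they stop short of the granulocyte and monocyte fates. Myeloid differentiation is known for falling RNA of early granule proteins such as myeloperoxidase and for the exit from the cell cycle. It is also known for the gain of lysosomal enzymes, scavenger receptors and chemokines. Benzarone inhibits the EYA phosphatases, which work with homeobox transcription factors in the retinal determination network.

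Depth was close between the samples. The median cell held 44743 unique molecular identifiers (UMIs, counted RNA molecules) on day 3 and 44761.5 on day 1 in benzarone, against 42565 in DMSO, and the highest mitochondrial share of any of these cells was 3.75%. Only 1 barcode occurred in both benzarone samples. Each barcode suffix belonged to a single sample, so library and condition cannot be told apart. UMIs were summed over the cells of a sample and scaled to CPM, the UMIs of a gene relative to the sample's total over the 9448 listed genes. The 4743 genes with at least 20 CPM and 20 UMIs in the higher sample were compared, and a gene was called when its CPM differed by at least 1.5-fold.

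Day 3 cells differed from day 1 cells mostly by gains. Of the 4743 genes, 156 (3.29%) were called higher on day 3 and 11 (0.232%) were called lower, or 3.52% either way, and 70 were higher by at least 2-fold while 0 were lower by that much. The median log2 ratio over all compared genes was -0.08, with 1643 genes above 0 and 3100 below it. Beside this, day 1 benzarone over day 1 DMSO gave 29 genes called higher (0.617%) and 11 lower (0.234%) of 4699, or 0.851% either way. This second ratio shares the day 1 benzarone cells with the first. In the separate day 5 table, benzarone over DMSO gave 1150 genes called higher (22.8%) and 1634 lower (32.5%) of 5033, or 55.3% either way. At the threshold, Ccng1 and Ifitm6 lay just inside with log2 ratios of 0.59, and Evi2a and Mtch1 just outside with 0.58.

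**Figure D1:**
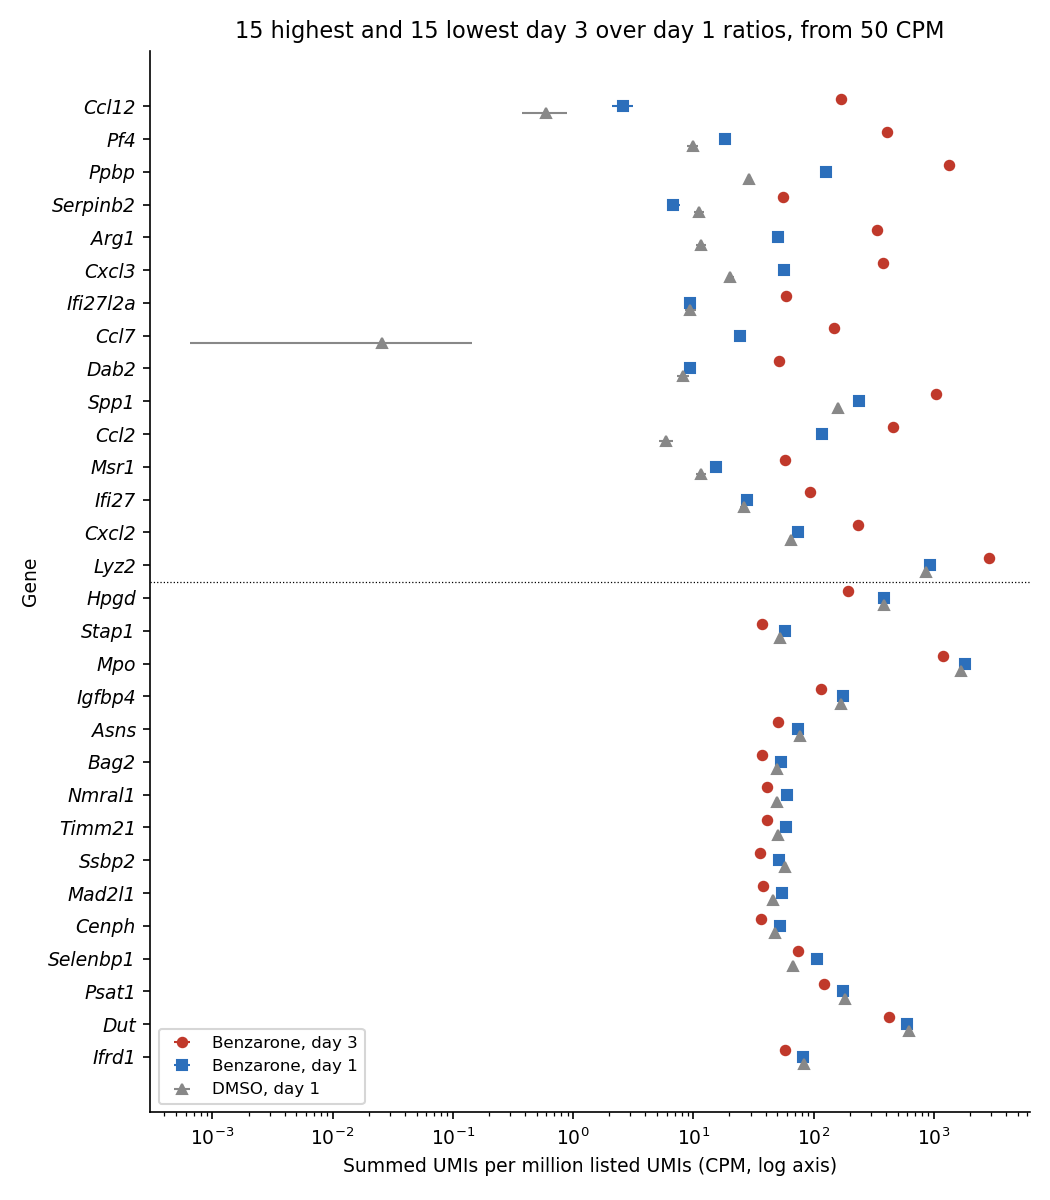
CPM (log axis) of the 15 genes with the highest and the 15 with the lowest ratio of day 3 to day 1 in benzarone among genes at 50 CPM or more in the higher sample, with DMSO on day 1 beside them, 1 sample each; bars are 95% Poisson intervals. The 15 upper genes span ratios of 64.9 for Ccl12 to 3.14 for Lyz2, while the lowest ratio among the lower genes is 0.504 for Hpgd.

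The check of the label against markers gave a myeloid profile in all samples. Of 16 primary granule genes 15 were listed and all 15 were kept. Their summed level was 16012 CPM on day 3, against 14993 in day 1 benzarone cells and 13692 in DMSO cells. Lyz2, a member of this list, had 2905 CPM on day 3 and 927 CPM on day 1 in benzarone, a larger difference than that of the sum. By log2 ratio of day 3 to day 1, 8 of the 15 genes lay above 0 and 7 below it. Genes that define other lineages were mostly not listed. No eosinophil marker of 10 was, and of 17 erythroid and 16 T and NK markers 1 each was (Tfrc and Nkg7). Of 17 mast cell and basophil genes 5 were listed, and of 14 dendritic cell genes 4. Every listed gene had a UMI in at least 38 cells, so a marker confined to fewer cells may be missing for that reason. Among 13 megakaryocyte genes 5 were listed, and the 8 others, among them Itga2b, Gp9, Gp1ba and Vwf, were not analysed here. Hoxa9, a homeobox factor that keeps progenitors growing, was at 192 CPM on day 3, against 206 in day 1 benzarone and 199 in DMSO cells.

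Chemokines gave the largest differences. These small secreted proteins draw white cells through G protein-coupled receptors, and the genes lie in tight clusters. Of 11 chemokine and cytokine genes kept, 8 were called higher and 0 lower, with a median log2 ratio of 1.55 against -0.08 over all genes. Over all compared genes 3.29% were called higher and 0.232% lower. Ccl12, a ligand of the monocyte receptor CCR2, is not on that list. It was at 168 CPM on day 3, against 2.59 CPM in day 1 benzarone cells and 0.597 CPM in DMSO cells, a 64.9-fold day 3 over day 1 ratio (53.1 to 80.2). Its neighbours Ccl7 and Ccl2 also code for CCR2 ligands. Ccl7 had 148 CPM on day 3, against 24.4 CPM on day 1 in benzarone and 0.0259 CPM (1 UMI) in DMSO, and Ccl2 had 460 CPM on day 3, against 118 CPM on day 1 in benzarone and 5.94 CPM in DMSO. All 3 genes were thus highest on day 3 and lowest in DMSO. They lie within 67.8 kb on chromosome 11 (GRCm38.p6), with Ccl2 at chr11:82035577-82037452, Ccl7 at chr11:82045712-82047525 and Ccl12 at chr11:82101845-82103399.

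A second chromosome 11 cluster, 91.8 kb long, holds Ccl9, Ccl6, Ccl3 and Ccl4. Ccl6, a myeloid chemokine, had 1194 CPM on day 3, against 409 CPM in day 1 benzarone cells and 137 CPM in DMSO cells. Ccl4, which draws monocytes and T cells, was 3.00-fold higher on day 3 than on day 1 (2.88 to 3.13). Ccl3 was 1.93-fold (1.85 to 2.01) and Ccl9 1.86-fold higher (1.82 to 1.90). The fold differences in this cluster were smaller than those of Ccl12 and Ccl7.

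The remaining group lies within 137 kb on chromosome 5 and codes for CXC chemokines. Ppbp is the precursor of a neutrophil attractant that platelets store, and Pf4 codes for platelet factor 4. Ppbp had 1345 CPM on day 3, against 126 CPM in day 1 benzarone cells and 28.9 CPM in DMSO cells. Pf4 had 407 CPM on day 3, against 18.3 CPM on day 1 in benzarone and 9.89 CPM in DMSO, a 22.2-fold day 3 over day 1 ratio (20.6 to 24.0). Both are also megakaryocyte markers. The 3 other kept genes of that list differed little, with log2 ratios of 0.12 for Rap1b, 0.06 for Fli1 and -0.06 for Nfe2. Cxcl3 and Cxcl2, ligands of the neutrophil receptor CXCR2, were 6.60-fold (6.31 to 6.91) and 3.17-fold higher (3.04 to 3.31).

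Promoters of 3 of these neighbours are shown with that of Mpo, which went the other way, so that genes that moved together and apart can be compared by sequence. Each runs from 250 bases before to 50 bases after the start of the gene, 5′ to 3′ on the plus strand, from RefSeq on GRCm38.p6. Capitals mark matches, on either strand, to 5 short motifs: GGG, any 2 bases and TTTCC for NF-kB, TTGCNNAA for C/EBP, TGANTCA for AP-1, GAGGAAGT for PU.1 and CACGTG for an E-box. No 2 matches overlap in these promoters. Ppbp lies at chr5:90768268-90768567, Pf4 at chr5:90772185-90772484, Cxcl3 at chr5:90785851-90786150 and Mpo at chr11:87793534-87793833.
Ppbp: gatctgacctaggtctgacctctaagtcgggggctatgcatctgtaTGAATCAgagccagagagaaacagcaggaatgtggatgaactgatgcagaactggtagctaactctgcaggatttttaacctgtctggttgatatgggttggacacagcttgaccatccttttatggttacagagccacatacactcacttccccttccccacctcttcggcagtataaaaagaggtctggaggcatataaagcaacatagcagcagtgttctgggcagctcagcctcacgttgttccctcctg
Pf4: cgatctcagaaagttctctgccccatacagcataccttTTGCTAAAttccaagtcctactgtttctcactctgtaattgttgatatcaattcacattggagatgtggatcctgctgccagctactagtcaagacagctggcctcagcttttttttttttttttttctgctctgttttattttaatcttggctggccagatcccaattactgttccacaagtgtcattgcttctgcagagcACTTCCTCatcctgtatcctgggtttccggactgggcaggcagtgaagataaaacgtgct
Cxcl3: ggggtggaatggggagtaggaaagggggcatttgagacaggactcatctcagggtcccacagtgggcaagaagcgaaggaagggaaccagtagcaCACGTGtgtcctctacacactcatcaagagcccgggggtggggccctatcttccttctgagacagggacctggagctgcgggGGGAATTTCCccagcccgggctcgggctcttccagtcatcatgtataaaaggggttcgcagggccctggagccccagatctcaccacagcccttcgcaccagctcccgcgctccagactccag
Mpo: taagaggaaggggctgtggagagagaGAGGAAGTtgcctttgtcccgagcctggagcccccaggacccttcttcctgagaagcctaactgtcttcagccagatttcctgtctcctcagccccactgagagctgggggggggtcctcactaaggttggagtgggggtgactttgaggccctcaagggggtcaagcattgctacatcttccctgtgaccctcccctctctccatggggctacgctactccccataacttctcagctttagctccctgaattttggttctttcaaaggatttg

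Ppbp held an AP-1 match, Pf4 a C/EBP match and, on the minus strand, a PU.1 match, Cxcl3 an E-box and an NF-kB match, and Mpo a PU.1 match. Over the 27025 promoters of the table, 1.62% held the NF-kB letters, 10.8% the C/EBP, 7.93% the AP-1, 3.28% the PU.1 and 7.24% the E-box letters. Among the 156 genes called higher, 114 had a promoter in the table. Of these, 8 held the NF-kB match (7.02%, against 1.64% of the 3774 promoters of compared genes), 19 the AP-1 match (16.7%, against 4.19%) and 13 the PU.1 match (11.4%, against 3.68%). The C/EBP match was in 19 (16.7%, against 9.12%) and the E-box in 11 (9.65%, against 12.3%). These are counts of letters, not of bound sites. The promoter of Ccl12 held no match to the 5 motifs.

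Macrophage genes followed the chemokines. Of 15 monocyte and macrophage genes kept, 12 were called higher and 0 lower, beside 3.29% called higher over all compared genes. Their median log2 ratio was 1.13. Arg1, the arginase of alternatively activated macrophages, had 340 CPM on day 3, against 50.3 CPM in day 1 benzarone cells and 11.6 CPM in DMSO cells. Spp1, the secreted phosphoprotein osteopontin, had 1049 CPM on day 3, against 239 CPM on day 1 in benzarone and 158 CPM in DMSO. Gpnmb, a glycoprotein of lysosome-rich phagocytes, was 15.5-fold higher (11.6 to 21.0) at 20.6 CPM on day 3. Lpl, which releases fatty acids from lipoproteins, was 2.61-fold (2.48 to 2.75) and the phagocyte marker Cd68 2.46-fold higher (2.28 to 2.66). The 3 members short of the threshold were F13a1, Ly6c2 and Emb, with log2 ratios of 0.40, 0.35 and 0.16. On no list but among the 15 highest ratios at 50 CPM or more were Serpinb2, Dab2 and Msr1. Serpinb2, an inhibitor of plasminogen activators, was 8.16-fold higher (7.17 to 9.33), the endocytic adaptor Dab2 5.48-fold (4.89 to 6.16) and the scavenger receptor Msr1 3.77-fold (3.44 to 4.14).

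Lysosomal and granule genes differed less as groups. Of 22 lysosome genes kept, 6 were called higher and 0 lower, with a median log2 ratio of 0.30 and 21 above 0. Of all 4743 compared genes, 3.29% were called higher and 1643 lay above 0. The proteases Ctsl, Ctsb and Ctsd were 2.83-fold (2.75 to 2.92), 2.21-fold (2.13 to 2.30) and 1.97-fold higher (1.93 to 2.01). Lyz2, the lysozyme of phagocytes, had 2905 CPM on day 3, against 927 CPM in day 1 benzarone cells and 856 CPM in DMSO cells. Of 14 secondary granule and late neutrophil genes kept, 5 were called higher and 0 lower, beside the same 3.29% over all genes. Their median log2 ratio was 0.43. Wfdc21 and the collagenase Mmp8 were among them, at 516 and 356 CPM on day 3, against 229 and 164 CPM in day 1 benzarone cells. The calcium-binding proteins S100a8 and S100a9 had log2 ratios of 0.17 and 0.08. In the primary granule list, Lyz2 was called higher and Mpo lower, and the median was 0.09.

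**Figure D2:**
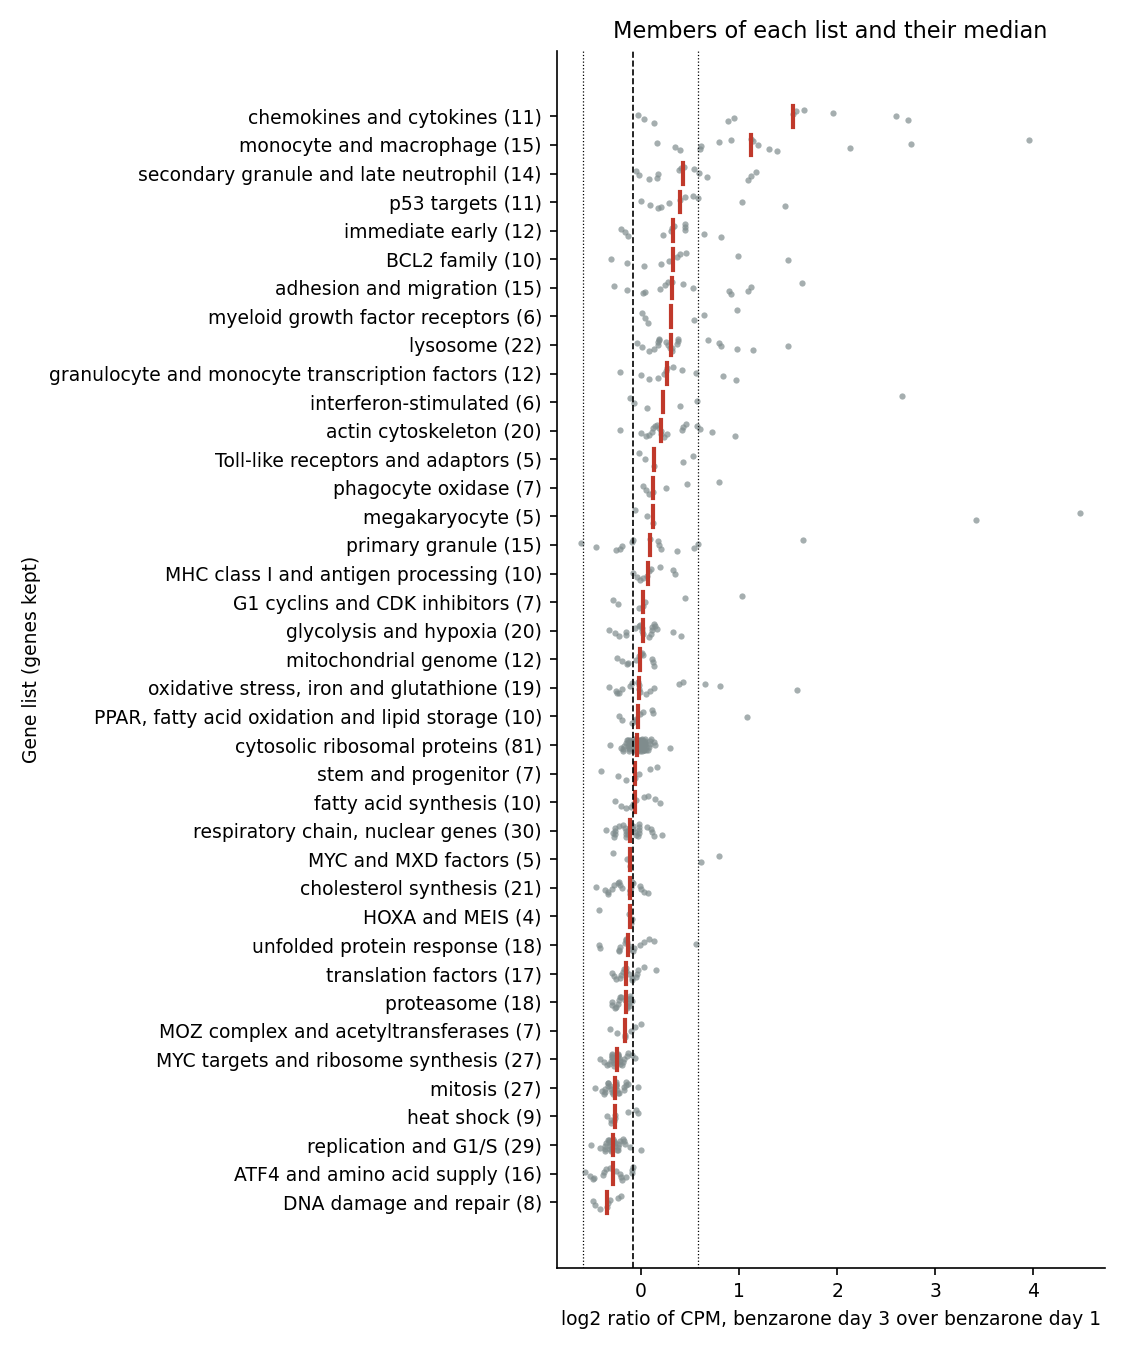
Log2 ratio of day 3 to day 1 in benzarone for each kept gene (grey) of the lists with at least 4 kept genes, with the list median (red); the dashed line is the median over all compared genes, -0.08, and dotted lines mark 1.5-fold. Chemokines (1.55) and macrophage genes (1.13) stand at the top, and DNA repair (-0.34) at the bottom.

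Gains in genes outside the macrophage list included p53 targets, Plin2, Hmox1 and the ferritin chains. All 11 kept p53 targets lay above 0, the lowest at 0.01, 3 of them past the threshold, with a median log2 ratio of 0.40. Over all 4743 compared genes, 1643 lay above 0 and 3.29% were called higher. Cdkn1a, the cyclin-dependent kinase inhibitor p21, had 388 CPM on day 3, against 190 CPM in day 1 benzarone cells and 157 CPM in DMSO cells. Phlda3, which restrains AKT signalling, had 35.6 CPM on day 3, against 12.9 CPM on day 1 in benzarone and 8.12 CPM in DMSO. Ccng1, which codes for cyclin G1, had 165 CPM on day 3, against 110 CPM on day 1 in benzarone and 86.6 CPM in DMSO. Plin2, the coat protein of lipid droplets, had 472 CPM on day 3, against 222 CPM on day 1 in benzarone and 79.5 CPM in DMSO. It was the only call among 10 kept genes of PPAR, fatty acid oxidation and lipid storage, whose median log2 ratio was -0.03 with 6 below 0. Hmox1, which breaks down haem, was 3.00-fold higher (2.80 to 3.23), and the ferritin chains Fth1 and Ftl1 were 1.75-fold (1.74 to 1.76) and 1.57-fold higher (1.57 to 1.58). The other 16 kept genes of that oxidative stress and iron list were not called, and the median of all 19 was -0.02 with 11 below 0. Ifi27 and Ifi27l2a, both interferon-inducible, were 3.32-fold (3.10 to 3.56) and 6.30-fold higher (5.63 to 7.08). The span of Ifi27 lies inside that of Ifi27l2a on chromosome 12. Ifi27l2a was the only call among 6 kept interferon-stimulated genes, of which 2 lay below 0. The summed level of that list was 6481 CPM on day 3, against 6462 CPM in day 1 benzarone cells and 7133 CPM in DMSO cells. Ifi27l2a has close paralogs, and how reads were split between them is not given in the sources used here.

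Losses were fewer and smaller. Hpgd, which breaks down prostaglandins, had 195 CPM on day 3, against 387 CPM in day 1 benzarone cells and 382 CPM in DMSO cells. Mpo, which codes for myeloperoxidase, had 1200 CPM on day 3, against 1826 CPM on day 1 in benzarone and 1682 CPM in DMSO. The signalling adaptor Stap1 and Igfbp4, a binding protein of insulin-like growth factors, were also called lower, with day 3 over day 1 ratios of 0.646 (0.604 to 0.691) and 0.662 (0.637 to 0.688). Mpo, Stap1 and Igfbp4 fell short of 1.5-fold under at least 1 other setting, and the count of genes called lower was 6 with TMM factors and 36 with cells thinned to 10000 UMIs. The neighbours of Mpo in the azurophil granule did not share its size of difference: Prtn3 had a log2 ratio of -0.09, Ctsg of -0.21 and Elane of 0.36.

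Whole growth lists lay below 0 with no member called, beside 3100 of 4743 genes below 0 in all. This held for 29 of 29 replication and G1/S genes (median log2 ratio -0.28), 27 of 27 mitosis genes (-0.26), 27 of 27 MYC target and ribosome synthesis genes (-0.24) and 16 of 16 ATF4 and amino acid supply genes (-0.28). It also held for 9 of 9 heat shock genes (-0.27), 8 of 8 DNA damage and repair genes (-0.34) and 18 of 18 proteasome genes (-0.15). Members close to 0, such as Mki67 at -0.03, lay within the 0.05 by which TMM factors moved the median of all genes. In the amino acid list, the enzymes of serine synthesis Phgdh, Psat1 and Psph had day 3 over day 1 ratios of 0.719, 0.699 and 0.713, and the asparagine synthetase Asns 0.673. The nucleolar protein Npm1 had 2329 CPM on day 3, against 3013 CPM in day 1 benzarone cells and 2634 CPM in DMSO cells. Translation factors lay at -0.15 and cytosolic ribosomal proteins at -0.04. All 4 kept HOXA and MEIS genes lay below 0, with log2 ratios of -0.09 for Hoxa10, -0.10 for Hoxa9, -0.12 for Hoxa7 and -0.43 for Meis1. Without the Ppbp-rich cells described below, Hoxa9 and Hoxa10 stood at 0.00. Of the 13 retinal determination genes, 3 were listed. Eya3 and Six4, both under 20 CPM in each sample, had log2 ratios of -0.03 and 0.33.

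How the RNA was spread over cells separated concentrated from broadly spread genes. The 5% of day 3 cells richest in a gene held 98.1% of all Ccl12 UMIs, 96.7% of Ccl7, 91.3% of Ccl2, 82.3% of Pf4, 79.4% of Arg1 and 70.5% of Ppbp. The same measure was 21.4% for Cdkn1a, 22.7% for Ifi27 and 14.1% for Ftl1. Over the 156 genes called higher its median was 37.8%, with 45 at 50% or more. Over all 4743 compared genes the median was 16.8%, with 53 at 50% or more.

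In the broadly spread genes the median cell differed between the days. The median cell held 283 CPM of Cdkn1a on day 3, against 121 CPM in day 1 benzarone cells and 81.9 CPM in DMSO cells. The median for Ifi27 was 64.6 CPM on day 3, against 18.6 CPM on day 1 in benzarone and 14.5 CPM in DMSO. For Ftl1 it was 16789 CPM on day 3, against 11233 CPM on day 1. For Mpo it was 901 CPM on day 3, against 1809 CPM on day 1, and the lower quartile was 47.4 CPM on day 3, against 791 CPM on day 1. The ranges between quartiles overlapped for Mpo, and 48.4% of day 3 cells lay below the lower quartile of day 1 benzarone cells. Hoxa9 had medians of 175 CPM on day 3 and 186 CPM on day 1.

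**Figure D3:**
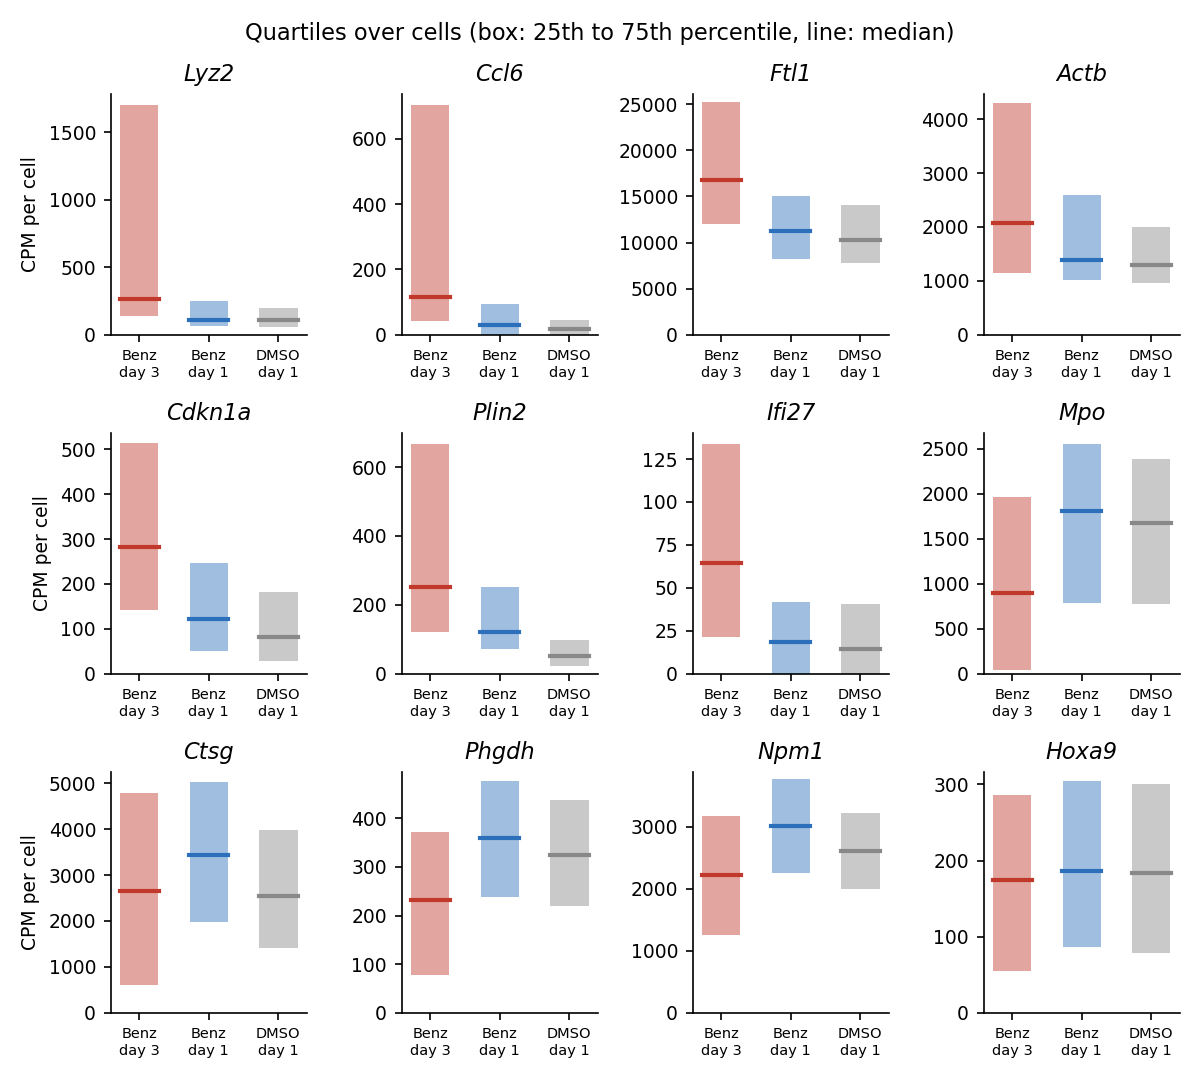
Quartiles over cells of CPM per cell for 12 genes in day 3 benzarone (red), day 1 benzarone (blue) and day 1 DMSO (grey) cells; boxes run from the 25th to the 75th percentile and lines are medians. The Mpo median is 901 CPM on day 3 and 1809 CPM on day 1 in benzarone. At least 10 Lyz2 UMIs were found in 480 of 829 day 3 cells, against 237 of 826 day 1 benzarone cells. For Ccl6 these counts were 333 and 130.

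The concentrated genes shared their cells. Counting a cell as rich in a gene at 10 or more UMIs, a level chosen with the values known, 36 of 829 day 3 cells were rich in Ccl12. All 36 were also rich in Pf4 and in Ppbp, 35 in Ccl2, 33 in Arg1 and 31 in Ccl7. None of the 36 was rich in Mpo, although 516 day 3 cells were. On day 1 in benzarone, 4 of 826 cells were rich in Ccl12, and 4 of these 4 were rich in Pf4 and in Ccl2. Of the 79 Arg1-rich cells of day 3, 67 were rich in Pf4, 72 in Ppbp and 0 in Mpo.

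Ppbp-rich cells made up 14.5% of day 3 cells (120 of 829, exact binomial interval 12.1% to 17.1%), against 2.66% of day 1 benzarone cells (22 of 826, 1.68% to 4.00%) and 1.02% of DMSO cells (9 of 883, 0.467% to 1.93%). They are defined by the level of a single gene and were not tested as a cell type. Few lay near the limit: on day 3, 25 cells held 5 to 9 Ppbp UMIs and 9 of the 120 rich cells held 10 to 19. Any Ppbp UMI was found in 76.4% of day 3 cells, against 17.4% of day 1 benzarone and 4.98% of DMSO cells, and after every cell was thinned to 10000 UMIs in 37.0%, 6.05% and 1.70%. Free RNA from the rich cells can give such single UMIs too, and its part was not tested. The rich cells were not the deepest ones, with a median of 40827.5 UMIs on day 3, against 45253 in the other day 3 cells.

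The Ppbp-rich cells stood apart from the other cells on both days. The Mpo level, from summed counts, was 33.7 CPM in the Ppbp-rich and 1379 CPM in the other day 3 cells, and 109 CPM in the rich and 1863 CPM in the other day 1 benzarone cells. The median cell held 2545 CPM of MYC target and ribosome synthesis genes if Ppbp-rich and 9852 CPM otherwise on day 3, and 2004 CPM if rich and 11134 CPM otherwise on day 1 in benzarone. Replication genes stood at 593 CPM in rich and 2295 CPM in other cells on day 3, and at 278 CPM in rich and 2611 CPM in other cells on day 1. HOXA and MEIS genes stood at 70.7 CPM in rich and 394 CPM in other cells on day 3, and at 38.4 CPM in rich and 405 CPM in other cells on day 1. Monocyte and macrophage genes stood at 11386 CPM in rich and 964 CPM in other cells on day 3, and at 8044 CPM in rich and 799 CPM in other cells on day 1. For these 4 lists the ratio between rich and other cells was wider than the ratio between days within either kind of cell. The median of secondary granule and late neutrophil genes was also higher in rich cells. It was 4322 CPM in rich and 732 CPM in other cells on day 3, and 9580 CPM in rich and 557 CPM in other cells on day 1. Members of that list went both ways on day 3 by summed counts. Mmp8 stood at 1410 CPM in rich and 194 CPM in other cells, and S100a8 at 3347 CPM in rich and 4207 CPM in other cells.

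**Figure D4:**
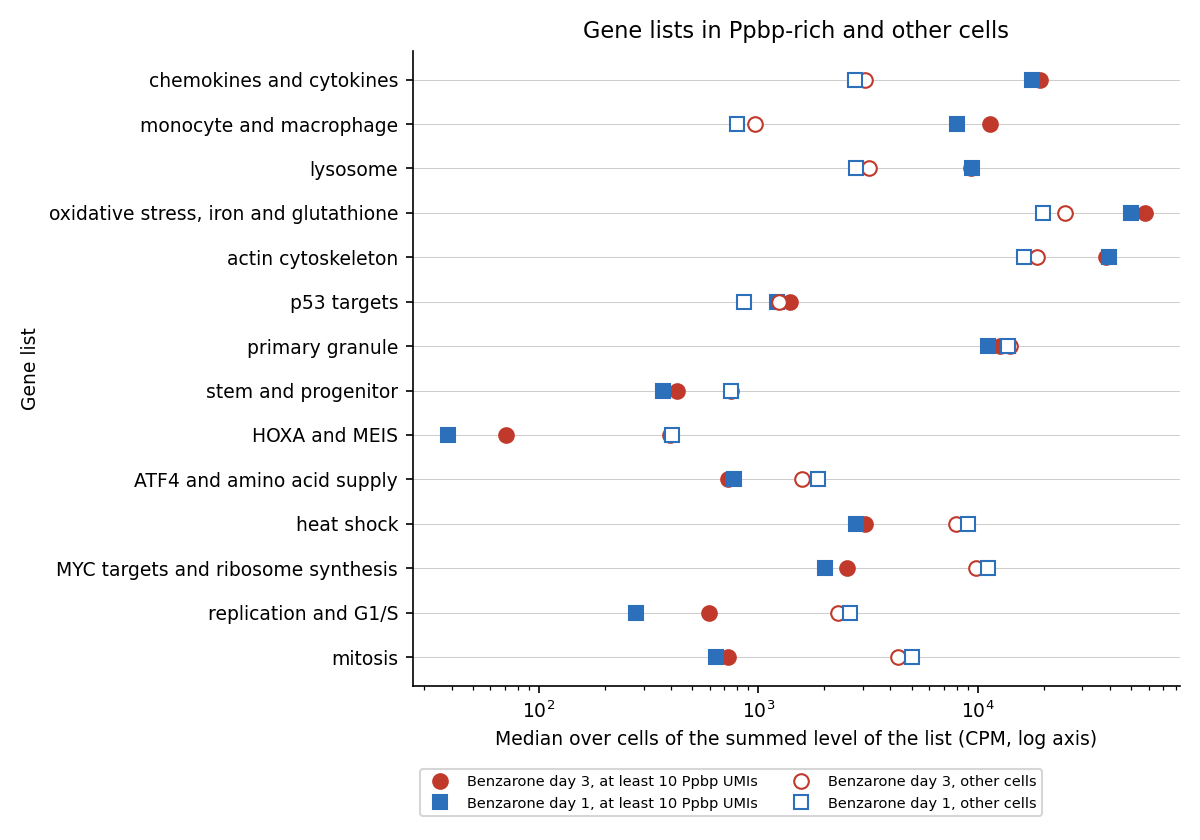
Median over cells of the summed CPM (log axis) of 14 gene lists in cells with at least 10 Ppbp UMIs (filled) and other cells (open), on day 3 (red circles) and day 1 (blue squares) in benzarone; Ppbp itself is left out of every list. For MYC targets the filled points lie at 2545 and 2004 CPM and the open points at 9852 and 11134 CPM.

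Without the Ppbp-rich cells of both days, the count of genes called higher was 52 in place of 156, and 66 of the 156 still differed by at least 1.5-fold. This cut rests on a gene itself called higher and removes 120 day 3 cells but 22 day 1 cells. Ratios of genes concentrated in those cells therefore tend to fall by construction. The genes called lower numbered 4 in place of 11. Arg1 went to 15.3 CPM on day 3 and 13.8 CPM on day 1, a log2 ratio of 0.15, Spp1 to 0.25 and Ctsl to 0.04. Ccl7 and Ccl2 turned round, to log2 ratios of -0.83 and -1.71, as did Id2 (-0.11), Cd74 (-0.22), AA467197 (-0.14), Ifitm6 (-0.10) and Rcbtb2 (-0.04). For Ccl2 and Ccl7 this rests on few cells. On day 3, 61 of 62 Ccl2-rich and 34 of 34 Ccl7-rich cells were also Ppbp-rich. On day 1 in benzarone, 9 of 12 and 5 of 7 were. Without the 5% of cells richest in Ccl2 itself, the Ccl2 level was 41.9 CPM on day 3, against 1.10 CPM on day 1. That removal takes a larger part of the Ccl2-rich cells on day 1, so it raises the ratio by construction and cannot settle the direction. Other genes moved less. Phlda3 stood at 1.55, Ifi27 at 1.62, Lpl at 1.38, Cdkn1a at 0.90 and Plin2 at 0.91 without those cells, against 1.47, 1.73, 1.38, 1.03 and 1.09 over all cells. Lyz2 and Ccl6 lay between, at 1.03 and 0.98, against 1.65 and 1.55 over all cells. Cxcl3 and Cxcl2 also stayed past the threshold without those cells, at 1.44 and 1.16, with 79.9 and 95.9 CPM left on day 3. So did Ccl12, Pf4 and Gpnmb, at 1.93, 0.96 and 2.93, but with only 3.12, 19.8 and 5.84 CPM left on day 3. Hpgd stayed past the threshold at -0.82, and Mpo was at -0.43.

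**Figure D5:**
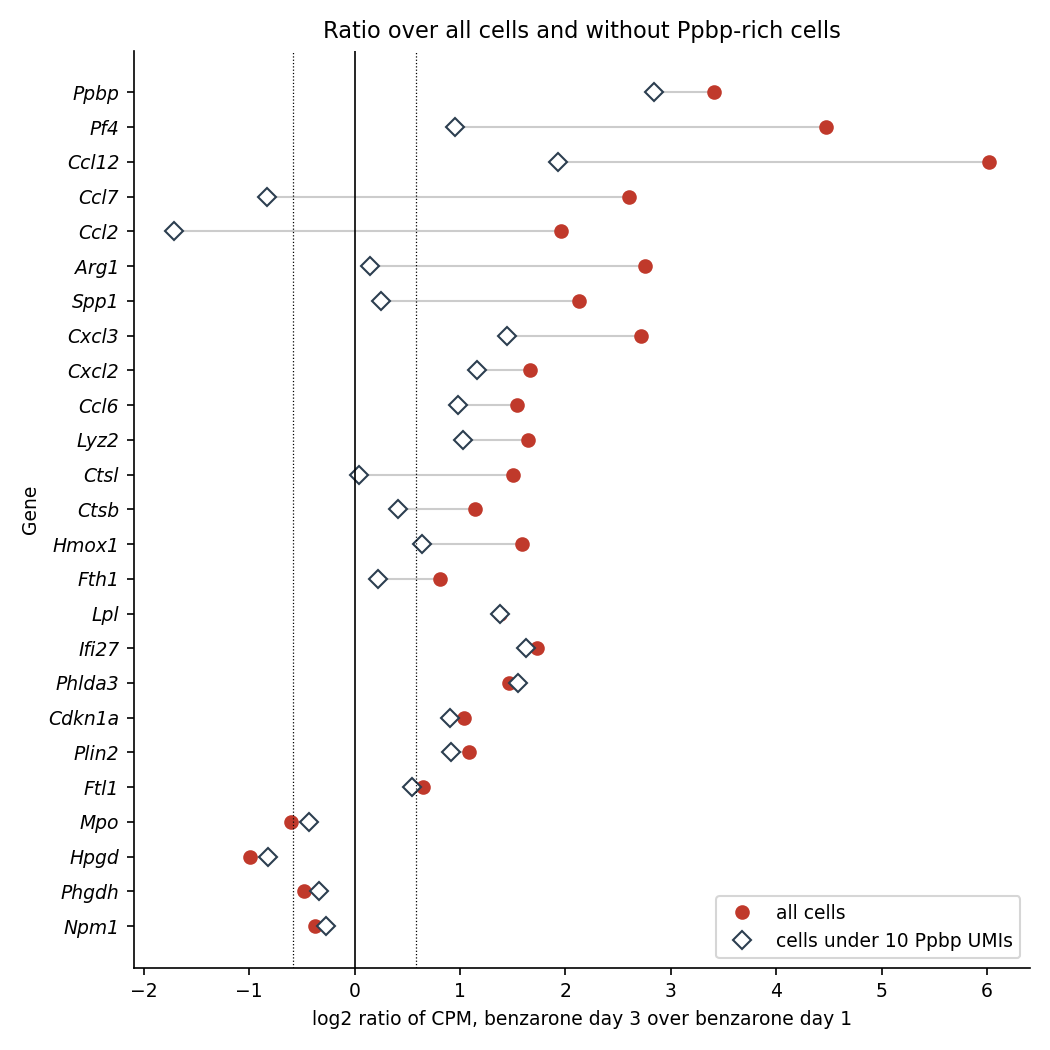
Log2 ratio of day 3 to day 1 in benzarone for 25 genes over all cells (filled red) and over cells under 10 Ppbp UMIs (open); dotted lines mark 1.5-fold. Ccl2 runs from 1.96 over all cells to -1.71, while Phlda3 is at 1.47 and 1.55.

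The p53 list was summed in both kinds of cell. The median cell held 1392 CPM of that list if Ppbp-rich and 1244 CPM otherwise on day 3, and 1213 CPM if rich and 862 CPM otherwise on day 1, so the difference between days was larger in the other cells. Within the rich cells members went both ways, with Cdkn1a at 687 CPM on day 3 and 489 CPM on day 1, and Mdm2, whose product degrades p53, at 81.9 CPM on day 3 and 90.1 CPM on day 1. Across all cells, 59.2% of day 3 cells were above the upper quartile of day 1 benzarone cells for this list, and 44.9% were below the lower quartile for MYC target and ribosome synthesis genes and 50.8% for the ATF4 list. Within day 3, the rank correlation across 829 cells between the macrophage and MYC target lists was -0.59, on cells thinned to 10000 UMIs. It was -0.44 across the 826 day 1 benzarone cells and -0.37 across the 883 DMSO cells. These values describe cells that share a library and a total, and carry no test.

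The 1-day and 5-day values of the same genes stand beside these without a comparison, because the day 1 ratio shares cells and the day 5 table was made separately. Plin2 had log2 ratios of 1.09 for day 3 over day 1, 1.48 for day 1 benzarone over DMSO and 3.61 for day 5 benzarone over DMSO. Ccl6 had 1.55, 1.58 and 4.85, Cdkn1a 1.03, 0.28 and 2.54, and Lyz2 1.65, 0.11 and 4.26. Mpo had -0.61, 0.12 and -4.42, Hpgd -0.99, 0.02 and -5.93, Phgdh -0.48, 0.12 and -2.89, and Hoxa9 -0.10, 0.05 and -1.31. Elane had 0.36, -0.03 and -2.78. Elane alone among these 9 genes was above 0 for day 3 over day 1 and below 0 on day 5.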

How the data were processed

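Of the series' 28 samples, 4 are single-cell samples, and the 3 conditions of the day 1 and 3 table were used, with day 5 beside them. The tables hold whole counts of UMIs per gene and cell as deposited by the authors, without normalization, and list part of the genes. Cell Ranger 3.0.0 is named in the submitters' processing notes, and libraries were droplet-based with hashtags, per the labels' protocols. UMIs were summed per sample with Python 3.11.15, numpy 2.4.6 and pandas 2.3.3 and scaled to CPM over listed genes. Intervals (95%) are exact Poisson for levels and exact conditional binomial for ratios, tested on simulated data. All cells of the tables were used, without clustering and without a search for doublets. No day 1 or 3 cell held fewer than 14997 UMIs. Total UMIs were 37339978 on day 3, against 37425176 on day 1 in benzarone and 38536313 in DMSO.

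Named genes were the 15 highest and 15 lowest ratios at 50 CPM or more, up to 4 members of each of 49 lists, and a fixed set such as Hoxa9 and Mpo. Other named genes were chosen after their values were seen. Members and lists were chosen with earlier results of these data known. The alternatives were TMM factors (edgeR 4.0.16), median of ratios, other filters and other weights of cells, plus 2 added after seeing the data, which left out the cells richest in a gene or in Ppbp. The values of 1 gene of the retinal determination list are not reported here.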

Additional observations from a re-analysis of the deposited data

How the results depend on the processing

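The count of 156 genes called higher lay between 165 and 211 under the 7 other scalings and cell filters. It was 95 at 50 CPM or more, 470 without a CPM filter, 70 at 2-fold and 52 without the Ppbp-rich cells. The count of 11 genes called lower was 7 with median of ratios, 6 with TMM factors, 36 with cells thinned to 10000 UMIs, 4 at 50 CPM or more, 74 without a CPM filter, 0 at 2-fold and 4 without the Ppbp-rich cells, and 9 to 15 under the 4 others. Calls higher made up 93.4% of all calls, and 83.7% with thinned cells. Of 56 named genes past 1.5-fold, 56 kept their sign and 49 kept 1.5-fold under every alternative planned; Ccng1, Fos, Mxi1, Stap1, Mpo, Igfbp4 and Kit did not. Of 48 list medians 9 changed sign, 8 of them between -0.11 and 0.09 and the 1 kept mast cell and basophil gene at 0.54 (lowest -0.10). Without the Ppbp-rich cells, chosen after seeing the data, 7 of the 156 genes called higher changed sign: Ccl7 (-0.83), Ccl2 (-1.71), Id2 (-0.11), Cd74 (-0.22), AA467197 (-0.14), Ifitm6 (-0.10) and Rcbtb2 (-0.04). More of these cells were on day 3, so ratios of genes concentrated in them tend to fall by construction. Leaving out the 5% of cells richest in each gene takes a larger part of the rich cells on day 1, where they were fewer, and so raises ratios by construction (Ppbp to 7.18, Arg1 to 7.89, Ccl2 to 5.25); it says nothing on stability. The cause of these moves was not tested. No paired analysis was possible because each condition was 1 sample and no test was run, and no replicate could be left out.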
